A study of Mus musculus with 8 samples.

Results

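The 10 genes described here encode G protein-coupled receptors through which gut hormones, glucagon, fatty acids, catecholamines, somatostatin, acetylcholine, stress peptides and galanin reach the beta cell. They were taken by symbol, as Glp1r, Gipr, Gcgr, Ffar1, Gpr119, Adra2a, Sstr3, Chrm3, Crhr1 and Galr1, and all 10 were found among the 23366 genes of the deposited table. Their levels were followed in 4 bottom and 4 top libraries of primary beta cells sorted from the pancreas of NOD mice aged 8 to 10 weeks, a strain prone to autoimmune diabetes. Neither population carried a treatment or an engineered allele per the labels, which do not say what the sort into bottom and top was based on. Each library was made from about 1000 cells, and 2 libraries of each population belong to batch 1 (bottom 1, bottom 2, top 1, top 2) and 2 to batch 2 (bottom 3, bottom 4, top 3, top 4).

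As background, receptors of this superfamily act through the alpha subunit of the G protein they bind. Receptors coupled to Gs raise cyclic AMP and amplify glucose-stimulated insulin secretion, those coupled to Gq release calcium from the endoplasmic reticulum and activate protein kinase C, and those coupled to Gi or Go lower cyclic AMP and restrain secretion. The incretin receptors for GLP-1 and GIP are the targets of drugs against diabetes.

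Totals ran between 7256042 and 11262368 estimated counts in bottom libraries and between 6657639 and 9366913 in top libraries, so 1 count was worth about 0.0927 to 0.109 CPM in bottom and 0.124 to 0.159 CPM in top. CPM are counts scaled to library depth, here after TMM scaling, a correction for differences in library composition. The label of beta cell was checked against marker genes. The 15 beta cell genes summed to 38875 to 81686 CPM in bottom and 345684 to 508007 CPM in top, with the transcription factor Mafa at 0 counts in all 8 libraries. The 8 delta cell genes summed to 33521 to 57881 CPM in bottom and 2703 to 5352 CPM in top, and the 5 PP and epsilon cell genes to 11342 to 91992 CPM in bottom and 1197 to 2356 CPM in top. The 12 acinar cell genes summed to 358 to 1545 CPM in bottom and 54.0 to 256 CPM in top, the 10 fibroblast and stellate cell genes to 3.28 to 938 CPM in bottom and 0.251 to 16.0 CPM in top, and the 8 endothelial genes to 8.30 to 286 CPM in bottom and 0.124 to 8.26 CPM in top. The 11 alpha cell genes summed to 30149 to 144191 CPM in bottom and 66502 to 139265 CPM in top, the 7 duct cell genes to 276 to 795 CPM in bottom and 140 to 396 CPM in top, and the 11 leukocyte genes, 3 of them at 0 in all libraries, to 0.765 to 4.32 CPM in bottom and 4.52 to 13.95 CPM in top. The part of these other cell types in the receptor levels was not tested. In these bulk libraries fewer beta cells and less receptor RNA per beta cell cannot be told apart. All 13 tested beta cell genes had negative log2 fold changes for bottom over top, with a median of -2.41.

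For 5 of the 10 receptor genes, Glp1r, Gipr, Gcgr, Galr1 and Chrm3, all 4 bottom libraries lay below all 4 top libraries. The same held for 458 of the 11721 genes tested, or 3.91%, and for 511 of the 17392 genes with any count, or 2.94%. None of the receptor genes was called by the edgeR quasi-likelihood test at an adjusted p under 0.05, where 52 genes, or 0.444% of those tested, were called, 0.162% as lower in bottom. Only 7 of the 10 passed the filter on low counts and were tested, since Glp1r, Ffar1 and Crhr1 reached the filter's level in too few libraries. Glp1r reached it in 3 top libraries, Ffar1 in 1 top library, and Crhr1 in 1 library of each population. Gipr, Gcgr, Galr1 and Chrm3 reached the filter's level in all 4 top libraries but in at most 2 bottom libraries, so they entered the test through the population in which they were high. These 4 were lower in bottom at an unadjusted edgeR p under 0.05, as were 4.63% of all tested genes. That count is given as a description from which nothing is read, as are the calls of other tools among them. DESeq2 called Galr1, Gcgr and Gipr (adjusted p = 0.000218, 0.0000148 and 0.00814), where it called 1.89% of the tested genes lower. Limma-trend called Galr1 and Gcgr (adjusted p = 0.0263 and 0.0498), where it called 0.503% lower. DESeq2 gave no adjusted p for Chrm3, and edgeR and limma-trend did not call it in any alternative run (lowest adjusted p 0.142, in edgeR without the batch term). Bottom 4 held the highest bottom value of Gipr, Gcgr, Galr1, Sstr3 and Chrm3, beside summed beta cell genes of 38875, 81686, 62235 and 79666 CPM in bottom 1 to bottom 4.

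**Figure D1:**
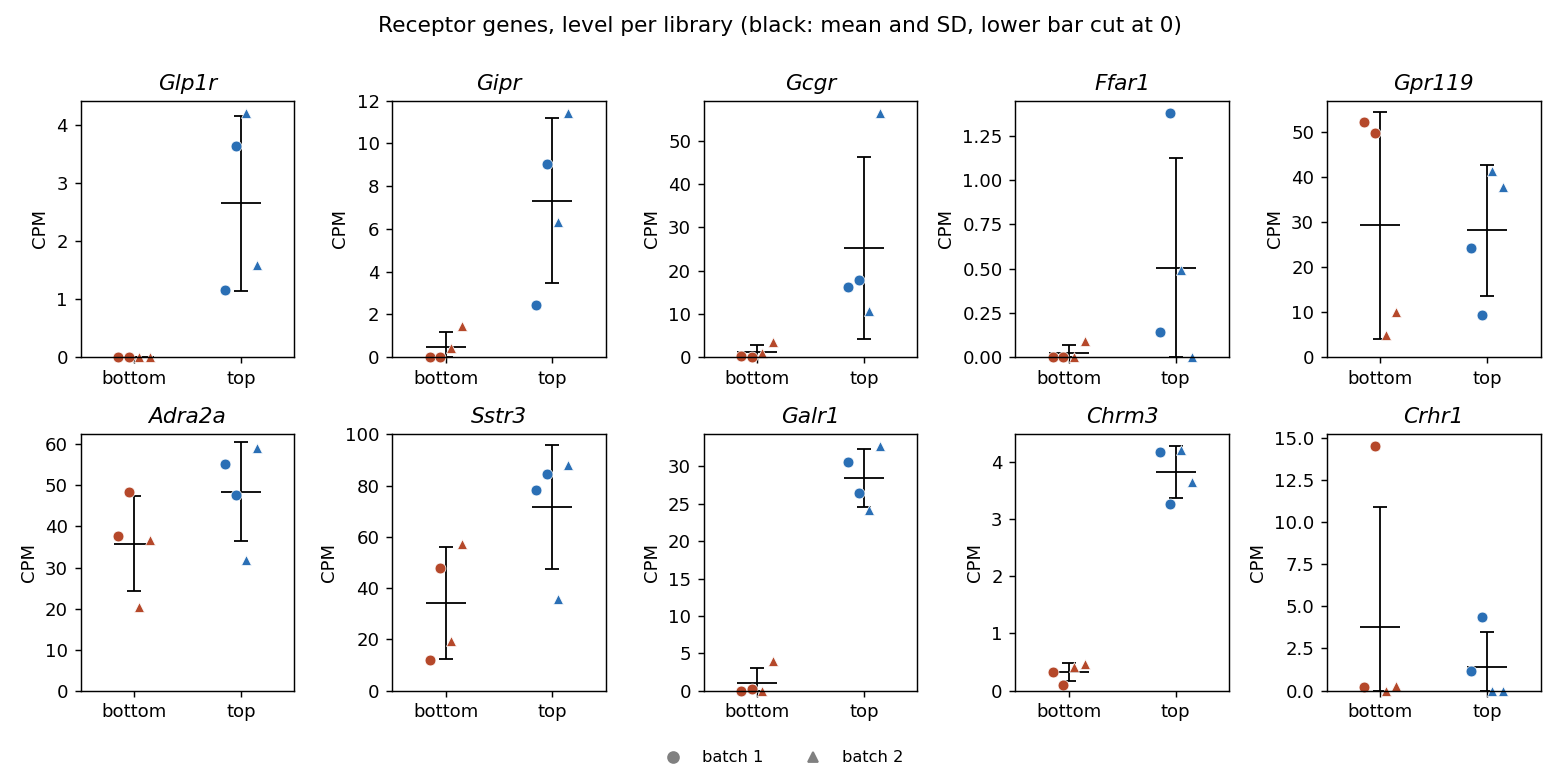
Level of each receptor gene in CPM (vertical axis, linear, a separate scale for each gene) in the 4 bottom and 4 top libraries. Each point is a library, circles are batch 1, triangles are batch 2, and black bars give the mean and SD with the lower bar cut at 0. Glp1r, Gipr, Gcgr, Galr1 and Chrm3 show no overlap between populations, while Gpr119 splits by batch.

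The incretin and glucagon receptors are related receptors for peptide hormones and couple to Gs. Glp1r, whose ligand is GLP-1, had 0 counts in each of the 4 bottom libraries, against 8, 29, 34 and 10 counts in top 1 to top 4. Those top counts correspond to 1.15, 3.64, 4.20 and 1.59 CPM. Every top library thus held the transcript and no bottom library did. A count of 0 over the population allows up to 3 counts, or 0.0747 CPM, and the pooled top level of Glp1r was 37.0-fold above that limit. The binomial interval at 95% confidence, which also takes in the counting error of top, began at 29.4-fold. Both values cover counting error only. In the fit without the low-count filter its edgeR adjusted p was 0.165, where 0.391% of 17392 genes were called lower. Glp1r lies on mouse chromosome 17, and its start region is shown because this gene had no count in any bottom library. The stretch below, from RefSeq on build GRCm38.p6, is chr17:30901617-30901816 on the plus strand and holds the 200 bases before the first annotated transcript start. Capitals mark the GC box, GGGCGG or its complement, a sequence bound by Sp1 factors.
Glp1r: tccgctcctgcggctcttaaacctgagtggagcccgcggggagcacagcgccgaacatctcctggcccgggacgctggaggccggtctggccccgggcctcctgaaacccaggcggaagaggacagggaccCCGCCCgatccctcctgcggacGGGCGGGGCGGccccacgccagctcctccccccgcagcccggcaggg
It holds 3 GC boxes, 2 of them overlapping by a base, and its bases are 75% G or C. The GC box was found on either strand in 24.6% of 32851 promoter stretches of the same length. Those stretches were the first 200 bases of each promoter entry and were not cut to end at the first annotated start. A TATA box (TATAAA, in 9.14% of the stretches) and a cyclic AMP response element (TGACGTCA, in 0.828%) are not among the letters of the Glp1r stretch. The RNA data were mapped to mm9 per the submitters' processing notes, so these coordinates describe the sequence and not the counts.

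Gipr, the receptor for GIP, had 0, 0, 4 and 16 counts in bottom 1 to bottom 4 (0, 0, 0.421 and 1.48 CPM), against 17, 72, 51 and 72 counts in top 1 to top 4 (2.45, 9.04, 6.31 and 11.4 CPM). The lowest top library held more than the highest bottom library. Gipr averaged 0.476 ± 0.700 CPM in bottom and 7.31 ± 3.86 CPM in top (SD, n = 4 each), a log2 fold change of -4.97 with an SE of 1.48 (edgeR adjusted p = 0.250). Both bottom libraries of batch 1 were at 0, and the batch means in bottom were 0 and 0.952 CPM, beside 5.74 and 8.87 CPM in top. Without bottom 4 the bottom mean was 0.140 CPM. The test of whether the difference changed between batches gave an edgeR adjusted p of 0.648.

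Gcgr, the glucagon receptor, through which neighbouring alpha cells can act on beta cells, had levels of 0.328, 0, 1.05 and 3.52 CPM in bottom 1 to bottom 4. It stood at 16.3, 17.8, 10.6 and 56.5 CPM in top 1 to top 4. The populations did not overlap, and top 4 stood far above the other top libraries. Gcgr averaged 1.23 ± 1.59 CPM in bottom and 25.3 ± 21.0 CPM in top (SD, n = 4 each), a log2 fold change of -5.07 with an SE of 1.21 (edgeR adjusted p = 0.139). Without top 4 the top mean was 14.9 CPM, and without bottom 4 the bottom mean was 0.460 CPM. Without the low-count filter edgeR called Gcgr (adjusted p = 0.0360), the one receptor gene of the 10 called in that fit. Its ligand is made from Gcg, which stood at 49319, 137464, 27942 and 41460 CPM in bottom and 70146, 62188, 135233 and 86987 CPM in top, so the Gcg levels of the populations overlapped (edgeR adjusted p = 0.784).

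Of the 2 lipid receptors, Ffar1, the receptor for long-chain fatty acids that couples to Gq, had few or no counts in each library. It had 0, 0, 0 and 1 counts in bottom 1 to bottom 4, against 1, 11, 4 and 0 counts in top 1 to top 4. The pooled level was 21.9-fold higher in top, with an interval from 3.41 to 919 at 95% confidence that covers counting error only. Most of the top counts lay in top 2, and libraries of both populations were at 0. In the fit without the low-count filter its edgeR adjusted p was 0.689. Ffar2, a receptor for short-chain fatty acids, had counts in every library, at 19.4 to 89.2 CPM in bottom and 21.1 to 64.4 CPM in top (edgeR adjusted p = 0.890). Ffar4, another receptor for long-chain fatty acids, stood at 13.2 to 35.4 CPM in bottom and 3.88 to 21.0 CPM in top (edgeR adjusted p = 0.804). Ffar3, a relative of Ffar2, was too low to test, at 0.105 to 6.39 CPM in bottom and 0.124 to 5.02 CPM in top.

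Gpr119, a Gs-coupled receptor for oleoylethanolamide and lysophospholipids, differed between the populations in opposite ways in the 2 batches. It stood at 52.1 and 49.7 CPM in bottom 1 and bottom 2, against 24.3 and 9.29 CPM in top 1 and top 2. It stood at 4.95 and 10.1 CPM in bottom 3 and bottom 4, against 41.2 and 37.8 CPM in top 3 and top 4. Within batch 1 both bottom libraries were above both top libraries, and within batch 2 both were below. How many of all tested genes turned in this way was not counted, so the turn is given as a description only. The bottom minus top difference of means was 34.1 CPM in batch 1 and -32.0 CPM in batch 2. Over both batches the means nearly coincided, at 29.2 ± 25.2 CPM in bottom and 28.1 ± 14.5 CPM in top (SD, n = 4 each, log2 fold change -0.39 with SE 0.97, edgeR adjusted p = 0.940). The interaction of batch and population, taken as the batch 2 difference less the batch 1 difference, was -3.99 on the log2 scale with an SE of 1.05 (edgeR adjusted p = 0.499). No gene passed that interaction test in edgeR, although 7.55% of the tested genes had an unadjusted p under 0.05. Limma-trend also called 0 genes, and DESeq2 called 188 genes including Gpr119 (adjusted p = 0.0150).

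Gpr119 is known from PP cells and from hormone cells of the gut as well as from beta cells. The PP and epsilon cell list summed to 77125, 91992, 11342 and 22081 CPM in bottom 1 to bottom 4, beside 2319, 2062, 1197 and 2356 CPM in top 1 to top 4. The 12 intestinal genes, such as Fabp1, Fabp2, Apoa1 and Rbp2, were general gut epithelium genes and not markers of the hormone cells of the gut. They summed to 35429, 8802, 41.5 and 15.3 CPM in bottom 1 to bottom 4, beside 2211, 171, 55.6 and 826 CPM in top 1 to top 4. Both sums were highest in bottom 1 and bottom 2, the bottom libraries with the most Gpr119. Among top libraries, Gpr119 was highest in top 3, where both sums were lowest. Gpr119 was next highest in top 4, which had the highest PP and epsilon sum of top and an intestinal sum below that of top 1 only. The part of these cell types in the Gpr119 levels was not tested.

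**Figure D2:**
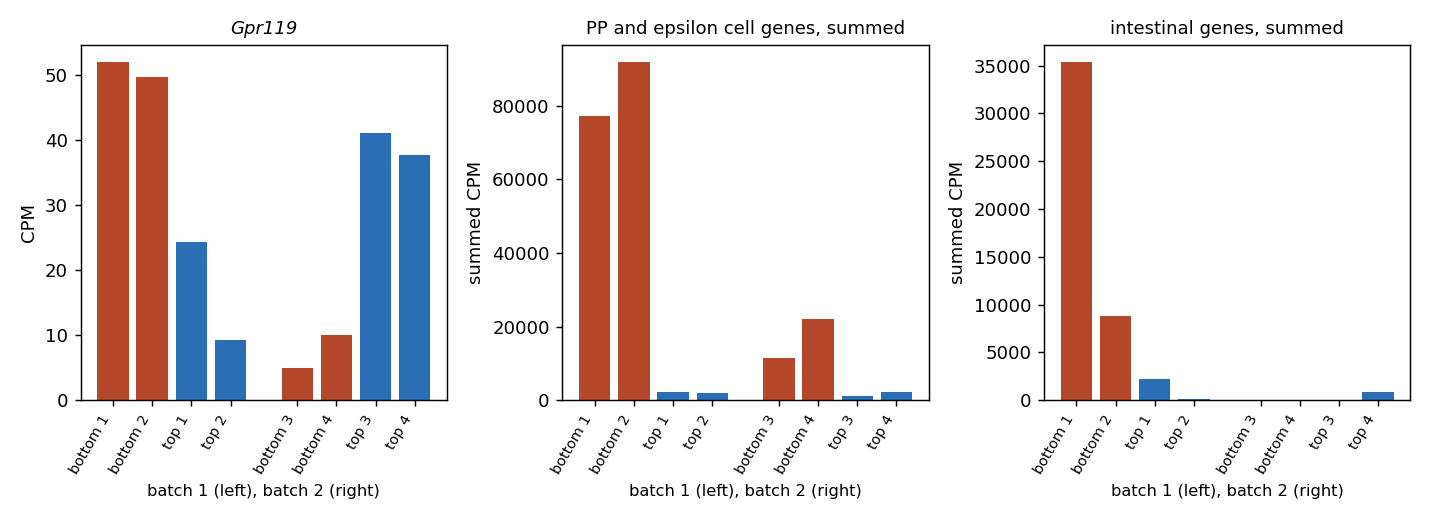
Gpr119 in CPM, and the summed CPM of 5 PP and epsilon cell genes and of 12 intestinal genes, for each bottom (red) and top (blue) library, with batch 1 on the left and batch 2 on the right of each panel. Gpr119 was higher in bottom than in top in batch 1 and lower in batch 2, and both marker sums were highest in bottom 1 and bottom 2.

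The start region of Gpr119 is shown because it is the receptor gene whose direction turned between batches. The stretch, from RefSeq on GRCm38.p6, is chrX:48674479-48674728 on the minus strand, the 250 bases before the first annotated start. Capitals mark TGACG, the core of the cyclic AMP response element.
Gpr119: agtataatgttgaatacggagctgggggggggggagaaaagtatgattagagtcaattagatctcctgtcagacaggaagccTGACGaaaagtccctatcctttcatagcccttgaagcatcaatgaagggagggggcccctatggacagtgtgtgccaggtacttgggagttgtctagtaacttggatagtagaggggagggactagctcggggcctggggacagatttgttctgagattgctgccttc
It holds 1 TGACG, which was found on either strand in 17.8% of the 32851 stretches of 250 bases. Those stretches were likewise not cut to end at the first annotated start. Unlike the Glp1r stretch, the Gpr119 stretch holds 0 GC boxes, which 32.7% of the stretches of that length hold, and its bases are 50.4% G or C.

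Of Galr1, Sstr3 and Adra2a, which restrain insulin secretion through Gi or Go, Galr1 had the most negative log2 fold change and Adra2a the one nearest to 0. Galr1, a receptor for the neuropeptide galanin, had 0, 3, 0 and 43 counts in bottom 1 to bottom 4, against 213, 211, 195 and 206 counts in top 1 to top 4. Those counts are 0, 0.280, 0 and 3.98 CPM in bottom and 30.6, 26.5, 24.1 and 32.7 CPM in top. The top libraries stood close together, and bottom 4 held nearly all of the bottom counts. Galr1 averaged 1.07 ± 1.95 CPM in bottom and 28.5 ± 3.90 CPM in top (SD, n = 4 each), a log2 fold change of -5.43 with an SE of 1.56 (edgeR adjusted p = 0.227). Without bottom 4 the bottom mean was 0.0935 CPM, and the edgeR adjusted p over the 8 omissions of a library ran from 0.0955 to 0.412. The ligand gene Gal had counts in 2 libraries, 33 in bottom 4 and 128 in top 3. Galr2 had 0 counts in all libraries, and Galr3 had 0 to 12 counts in bottom libraries and 0 to 15 in top libraries.

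Sstr3, a somatostatin receptor that in mouse islets is found on the primary cilium of beta cells, had levels of 11.9, 47.9, 19.4 and 57.3 CPM in bottom 1 to bottom 4, against 78.3, 84.5, 35.9 and 88.1 CPM in top 1 to top 4. Top 1, top 2 and top 4 were above every bottom library, and top 3 lay between bottom 3 and bottom 2. The means were 34.1 ± 21.9 CPM in bottom and 71.7 ± 24.2 CPM in top (SD, n = 4 each), with a log2 fold change of -1.07 with an SE of 0.56 (edgeR adjusted p = 0.585). Sst, the gene of its ligand, is also among the delta cell genes that were summed as markers. Sst was called higher in bottom (log2 fold change 3.71 with SE 0.33, edgeR adjusted p = 0.00498). It stood at 31584 to 55701 CPM in bottom and 2333 to 5048 CPM in top. More delta cells and more Sst RNA per delta cell cannot be told apart here.

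Adra2a, the receptor through which noradrenaline and adrenaline inhibit insulin secretion, had levels of 37.7, 48.3, 20.3 and 36.7 CPM in bottom 1 to bottom 4, against 55.2, 47.7, 31.8 and 59.1 CPM in top 1 to top 4. The populations overlapped, with the lowest library of each in batch 2. The means were 35.8 ± 11.6 CPM in bottom and 48.4 ± 12.1 CPM in top (SD, n = 4 each), a log2 fold change of -0.46 with an SE of 0.40 (edgeR adjusted p = 0.789). The related Adra2b was low in both populations, at 0.935 to 2.40 CPM in bottom and 1.29 to 1.88 CPM in top (log2 fold change -0.01 with SE 0.75, edgeR adjusted p = 0.997), and Adra2c had 0 counts.

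Chrm3, the Gq-coupled muscarinic receptor through which acetylcholine from parasympathetic nerves promotes insulin secretion, was low but even within each population. It had 3, 1, 4 and 5 counts in bottom 1 to bottom 4 (0.328, 0.0935, 0.421 and 0.463 CPM), against 29, 26, 34 and 23 counts in top 1 to top 4 (4.17, 3.26, 4.20 and 3.65 CPM). No bottom library came near the lowest top library. The means were 0.326 ± 0.165 CPM in bottom and 3.82 ± 0.450 CPM in top (SD, n = 4 each), a log2 fold change of -3.57 with an SE of 0.87 (edgeR adjusted p = 0.154). The difference of means was -3.51 CPM in batch 1 and -3.49 CPM in batch 2. Of the other muscarinic receptors, Chrm1 was tested, at 3.28 to 6.58 CPM in bottom and 1.58 to 4.29 CPM in top (edgeR adjusted p = 0.812). Chrm2 had counts in bottom 3 (18) and top 2 (67), Chrm4 had 0 to 40 counts in bottom libraries and 0 to 2 in top libraries, and Chrm5 had 0 counts.

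Crhr1, the Gs-coupled receptor for corticotropin-releasing hormone, was sporadic. It had 2, 155, 0 and 3 counts in bottom 1 to bottom 4, against 8, 35, 0 and 0 counts in top 1 to top 4. Nearly all counts lay in bottom 2 and top 2, both of batch 1, and the populations overlapped. The bottom mean was 3.75 ± 7.16 CPM, or 0.165 CPM without bottom 2, and the top mean was 1.39 ± 2.08 CPM, or 0.384 CPM without top 2 (SD, n = 4 each). In the fit without the low-count filter its edgeR adjusted p was 0.794. The ligand genes Crh and Ucn had 0 counts in all libraries.

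Sstr1, which shares its ligand with Sstr3, and Crhr2, a relative of Crhr1, had higher values in bottom, although neither was called. Sstr1, another somatostatin receptor, had levels of 7.21, 3.46, 31.2 and 15.2 CPM in bottom 1 to bottom 4, against 0, 0, 0.495 and 1.75 CPM in top 1 to top 4. Its log2 fold change was 5.48 with an SE of 1.23 (edgeR adjusted p = 0.111). Crhr2, which in mouse islets is the receptor of delta cells for urocortin 3, had levels of 5.68, 9.91, 2.21 and 10.2 CPM in bottom 1 to bottom 4, against 0, 0.879, 0 and 0 CPM in top 1 to top 4. Its log2 fold change was 5.47 with an SE of 1.57 (edgeR adjusted p = 0.229). For both genes every bottom library was above every top library, as for 3.31% of the tested genes. Top libraries held 0 to 11 counts of Sstr1 and 0 to 7 of Crhr2. Both genes thus entered the test through bottom, the population in which they were high, so nothing is read from their lack of overlap. Ucn3, which mature beta cells express and which encodes urocortin 3, had levels of 8.08, 151, 10.9 and 28.4 CPM in bottom and 1007, 1344, 624 and 757 CPM in top (log2 fold change -4.51 with SE 0.81, edgeR adjusted p = 0.0589). The highest bottom value of Ucn3 was in bottom 2, the library with the most Crhr1. Sstr2 had counts in bottom 2 (83), top 3 (1) and top 4 (18), while Sstr4 and Sstr5 had 0 counts.

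**Figure D3:**
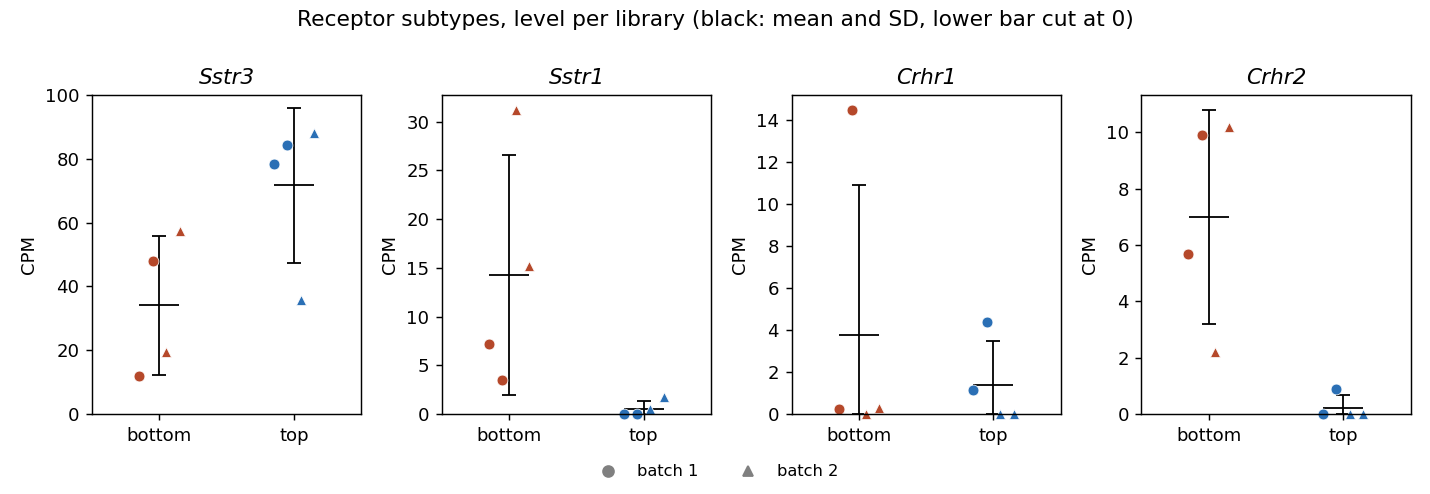
Level in CPM (vertical axis, linear, a separate scale for each gene) of the somatostatin receptors Sstr3 and Sstr1 and of the receptors Crhr1 and Crhr2 in the 4 bottom and 4 top libraries. Points are libraries, circles batch 1, triangles batch 2, and black bars the mean and SD with the lower bar cut at 0. Sstr1 and Crhr2 lay above top in all 4 bottom libraries, while Sstr3 and Crhr1 overlapped.

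Set beside islet markers, the values of Galr1, Gcgr and Gipr, between -5.43 and -4.97 on the log2 scale, lay below those of Ins2 (-2.99, SE 0.30), Slc2a2 (-3.20, SE 0.56) and G6pc2 (-2.41, SE 0.25), but their SE were larger and the differences between genes were not tested. Ins2 and G6pc2 were called lower in bottom (edgeR adjusted p = 0.00498 for each). Slc2a2, the glucose transporter, had an edgeR adjusted p of 0.0503. Sstr3, Adra2a and Gpr119 had values nearer to 0 than these beta cell markers.

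**Figure D4:**
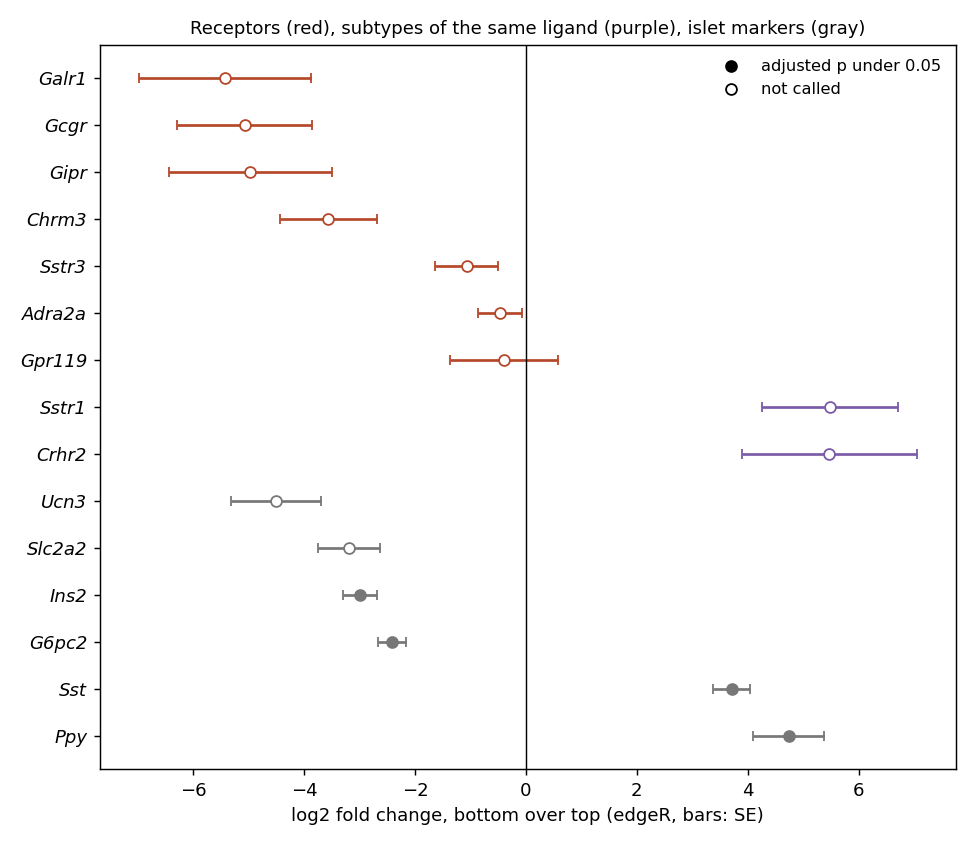
Log2 fold change of bottom over top with its SE (horizontal axis, edgeR) for the 7 tested receptor genes in red, Sstr1 and Crhr2 in purple, and islet markers in gray. Filled points have an adjusted p under 0.05, and no receptor gene is filled.

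The signalling genes around these receptors were read from the same fit. Across 8 lists of related receptors, ligands and signalling genes, 119 genes were tested and 2 were called by edgeR, both higher in bottom and both hormones, Sst and Pyy. Sst is also in the delta cell list, and Pyy in the PP and epsilon cell list. Pyy, which encodes peptide YY, had a log2 fold change of 3.07 with an SE of 0.40 (edgeR adjusted p = 0.0186). DESeq2 called 14 of the 119 higher and 9 lower, where it called 3.14% of all tested genes higher and 1.89% lower. Limma-trend called 6 higher and 2 lower, where it called 0.665% higher and 0.503% lower. Over all 11721 tested genes the median log2 fold change was 0.0033.

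Of 7 related receptors tested none was called by edgeR, 2 were higher at an unadjusted p under 0.05, and the median was 0.81. Of all tested genes, 5.62% were higher and 4.63% lower at that level. Of 16 other islet receptors none was called, 3 were higher and 1 lower at that level, and the median was 0.37. Their smallest p-values belonged to Gpr39, a zinc-responsive receptor (log2 fold change 3.78, SE 1.20), to the oxytocin receptor Oxtr (1.55, SE 0.50) and to the adenosine receptor Adora1 (-4.87, SE 1.90). Adora1 stood at 0, 0, 1.37 and 12.5 CPM in bottom, against 35.4, 16.7, 26.8 and 26.5 CPM in top, without overlap (edgeR adjusted p = 0.400).

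Of 20 G protein subunits none was called, 2 were higher and 2 lower at an unadjusted p under 0.05, and the median was 0.45. The gamma subunit Gng11 stood at 2.08 to 37.3 CPM in bottom and 0 to 0.432 CPM in top (edgeR adjusted p = 0.163). It entered the test through bottom, where it was high. Gng12 had a log2 fold change of -0.94 with an SE of 0.25 (edgeR adjusted p = 0.193) and Gnb4 of 2.27 (SE 0.66, edgeR adjusted p = 0.238). Among 32 genes of cyclic AMP signalling none was called, 0 were higher and 2 lower at that level, and the median was -0.27. The 2 were Prkar2b, a regulatory subunit of protein kinase A, at 0.437 to 15.3 CPM in bottom and 27.6 to 73.1 CPM in top (edgeR adjusted p = 0.210), and Rapgef4, the cyclic AMP sensor EPAC2 of insulin granule release, at 6.34 to 40.7 CPM in bottom and 47.8 to 84.3 CPM in top (edgeR adjusted p = 0.263). Creb1, the transcription factor that protein kinase A phosphorylates, had a log2 fold change of -1.06 with an SE of 0.51 (edgeR adjusted p = 0.533).

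Of 13 genes of the Gq pathway none was called, and 2 were higher and 2 lower at an unadjusted p under 0.05. The median was -0.91, but 0.35 in batch 2 alone. Itpr1, a calcium channel of the endoplasmic reticulum opened by inositol trisphosphate, stood at 161, 161, 114 and 175 CPM in bottom, against 55.0, 56.2, 61.5 and 57.8 CPM in top (log2 fold change 1.41 with SE 0.27, edgeR adjusted p = 0.0706). The protein kinases C Prkcb and Prkca had log2 fold changes of -1.18 (SE 0.29, edgeR adjusted p = 0.155) and -2.49 (SE 0.81, edgeR adjusted p = 0.292). Of 17 genes of receptor desensitization and modulation none was called, 4 were higher and 0 lower at that level, and the median was 0.42. Rgs2, Rgs4 and Rgs9, which speed the shut-off of G proteins, had log2 fold changes of 1.14, 0.98 and 1.35 (edgeR adjusted p = 0.183, 0.249 and 0.442). Of 13 genes that cyclic AMP induces none was called, 2 were higher and 0 lower at that level, and the median was 0.44, with Fosb at 0.94 (edgeR adjusted p = 0.0893), Fos at 0.81 (0.173) and Per1 at 1.09 (0.491).

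Across the 8 libraries, Gpr119 had Pearson correlations of log2 CPM between -0.15 and 0.51 with the other 6 tested receptor genes. For the 5 receptor genes above a mean of 10 CPM the most similar of all tested genes were found over the same 8 libraries, as a description with no test. They were Pitpnm3, Gbf1 and A730020E08Rik for Gcgr (r = 0.98 each) and T2, Tmem180 and Pcx, the pyruvate carboxylase, for Galr1 (r = 0.98, 0.98 and 0.97). They were Ttf1, Acp6 and Mfsd2a, a lysophosphatidylcholine transporter, for Gpr119 (r = 0.98, 0.93 and 0.93) and Cpe, the carboxypeptidase that matures insulin, Nme4 and Atp6v0a2 for Sstr3 (r = 0.97 each). For Adra2a they were Fam73b, 2410004N09Rik and Slc39a7 (r = 0.97, 0.96 and 0.96).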

How the data were processed

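RNA of 8 libraries was amplified with the SMARTer Ultra Low RNA kit and tagmented with Nextera XT, per the labels' protocols. The deposited values are expected counts per gene. The submitters' processing notes list RSEM, edgeR and mm9, while aligner, annotation and versions are not given in the sources used here. Series and single-library tables agreed (largest difference 0), and 34.8% of the values were not whole and were rounded. Separate animals are not stated in the labels, and p-values then reflect only library-to-library spread, which may be technical.

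Bottom was compared with top in edgeR 4.0.16 (quasi-likelihood test, R 4.3.3) with batch as covariate, TMM scaling and filterByExpr by population. That left 11721 genes, p-values were adjusted over all of them by the Benjamini-Hochberg method, and calls were made at 0.05. Log2 fold changes are bottom over top, and each SE was derived from the same fit. DESeq2 1.42.0, limma 3.58.1, other scalings, no filter, single batches and omitted libraries were the alternatives. Bounds use a floor of 3 counts over the population, and intervals are exact binomial at 95% confidence. Amplified reads are not independent molecules, so both cover counting error only. Levels were not compared between genes, since lengths were not used. Without strand, overlapping antisense reads could not be separated. The receptor genes and lists were chosen with earlier results of these data known. Named list genes are those called, otherwise the 3 with the smallest p, plus subtypes and ligands of the 10 receptors. RefSeq promoter entries matched 8 of the 10.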

Additional observations from a re-analysis of the deposited data

Results flagged for a closer look

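In each group of 4 libraries, a library was singled out when its gap to the nearest other library exceeded Dixon's critical share of the range. Chance does so in about 1 group in 20 only for normally distributed values, which low counts are not. A group with counts in a single library is always singled out. It happened in 17 of 87 groups, many of them genes with counts in a single library, so this number cannot be set against that rate. Among the receptor genes these were Gcgr in top 4 (56.5 CPM), Galr1 in bottom 4 (3.98 CPM), Crhr1 in bottom 2 (14.5 CPM) and Ffar1 in bottom 4 (0.0927 CPM, a single count). Among bottom libraries of other named genes they were Adora1 (12.5 CPM), Ffar3 (6.39 CPM) and Gal (3.06 CPM) in bottom 4, Prkca (13.7 CPM) and Chrm2 (1.90 CPM) in bottom 3, and Ucn3 (151 CPM) and Sstr2 (7.76 CPM) in bottom 2. Among top libraries they were Chrm2 (8.41 CPM) and Crhr2 (0.879 CPM) in top 2, Gal (15.8 CPM) and Galr3 (1.85 CPM) in top 3, Sstr2 (2.86 CPM) in top 4 and Gng11 (0.432 CPM) in top 1.

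Gpr119 was noted because its difference had opposite signs in the batches in every library. Such a turn was looked for among the receptor genes only, and its share among all tested genes was not counted. The batch 2 difference less the batch 1 difference was -3.99 on the log2 scale, with an edgeR adjusted p of 0.499 and a DESeq2 adjusted p of 0.0150.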

How the results depend on the processing

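The 0 receptor genes called became 3 with DESeq2, 2 with limma-trend and 1 without the low-count filter, and stayed at 0 in each of the 8 omissions of a library and in each other alternative. The interaction called 0 receptor genes except in DESeq2, which called 1. The number with all bottom below all top libraries was 5, and 5 to 6 over the omissions. The 52 genes called overall became 589 with DESeq2, 137 with limma-trend, 204 without the filter, 32 without the batch term, 2 in batch 1 alone, 2 in batch 2 alone, and 8 to 60 over the omissions. The 2 signalling genes called became 23 with DESeq2, 8 with limma-trend, 5 without the filter, 6 with total counts only, 1 in batch 1 alone, 0 in batch 2 alone and 1 to 3 over the omissions. They became 0 with the hormone genes left out, which removes both. The log2 fold change of Gpr119 turned to 0.054 without the batch term, 1.57 in batch 1 alone, 0.45 without bottom 3 and 0.27 without bottom 4, within -1.29 to 0.45 over the omissions. The other 6 tested receptor genes kept a negative value in all 18 alternatives. Scaling by total counts alone moved the median of all genes by 0.33 (log2). With that scaling the median of the cyclic AMP list turned from -0.27 to 0.05. The median of the Gq list went from -0.91 to 0.35 in batch 2 alone and to -0.15 without bottom 1. With a replicate block made of the batch and the number in the title, edgeR called 0 genes, 0 receptor genes and 0 signalling genes. Only libraries numbered 1 share a number, so 2 pairs carry that fit, and their deviations from the group means correlated at 0.20 and 0.12. The group means were taken over both batches, so these correlations cannot tell a pair from a shared batch. Counts below about 10 in most libraries limit what can be said of Glp1r, Ffar1 and Crhr1. The same limit applies to Gipr, Galr1 and Chrm3 in most bottom libraries, and to Gcgr in bottom 1 and bottom 2.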
